A study of Mus musculus with 12 samples.

Results

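The Hox9, Hox10 and Hox11 paralogs are the 9 genes Hoxa9, Hoxa10, Hoxa11, Hoxc9, Hoxc10, Hoxc11, Hoxd9, Hoxd10 and Hoxd11, found here by gene symbol among 36186 genes of the deposited count table. RNA was sequenced from whole mouse kidneys at E18.5, in 12 libraries with 3 per genotype. Wt is wild type. AkCh kidneys carry frameshift mutations in both copies of Hoxa9, Hoxa10 and Hoxa11 and in 1 copy of Hoxc9, Hoxc10 and Hoxc11. AhCk kidneys carry them in 1 copy of the Hoxa genes and both copies of the Hoxc genes. AkCk kidneys are labelled as mutant in both copies of all 6 genes. By the description in the study's text, however, the sequenced AkCk mutants kept at least 1 intact copy of Hoxa11. Its accounts differ on whether any kept both, and the Hoxa11 alleles of the single AkCk libraries cannot be read from the labels. Hoxd9, Hoxd10 and Hoxd11 were mutated in none of these groups. The mutations are constitutive and were made by recombineering on a mixed background, with the DNA between the genes left in place. All libraries of Wt, AkCh and AkCk came from 1 sequencing run and all AhCk libraries from another, so run and genotype cannot be told apart wherever AhCk is compared. The labels do not state whether the libraries of a group came from separate embryos, and p-values measure the spread between these libraries.

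Hox genes encode homeodomain transcription factors that pattern the body axis, and genes with the same number on the HoxA, HoxC and HoxD clusters are paralogs with overlapping functions. Hox11 proteins act with Eya1 and Pax2 in the metanephric mesenchyme, where they are needed for Gdnf and Six2 expression and for outgrowth of the ureteric bud. Hox10 proteins act in the renal stroma as well. A frameshift mutation stops the protein from being made in full but may leave transcript present. The level of the transcript therefore depends on how these loci were transcribed and how stable their RNA was. It does not measure how much Hox protein was present.

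The genes lie on mouse build mm10 (GENCODE release M21) at chr6:52223100-52231089 (Hoxa9), chr6:52231197-52240854 (Hoxa10) and chr6:52242106-52245810 (Hoxa11), all on the minus strand. On the plus strand lie Hoxc11 at chr15:102954427-102957708, Hoxc10 at chr15:102966796-102971893 and Hoxc9 at chr15:102976439-102985099, and likewise Hoxd11 at chr2:74679557-74687016, Hoxd10 at chr2:74691924-74695105 and Hoxd9 at chr2:74697727-74700208. Some exons are shared with other genes. In Hoxa11, 35.0% of exon bases lie opposite its antisense RNA Hoxa11os, and in Hoxd11 23.9% overlap Gm28309. Hoxc10 shares 8.7% of its exon bases with Hoxc5, and Hoxd10 shares 5.7% with Gm28309. How such reads were assigned, and whether strand was used, is not given in the sources used here.

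The targeted Hoxc10 and Hoxc11 alleles bear on the counts, because coding bases missing from an allele can give no reads. The allele sequences of the study were matched to the GENCODE transcripts, and the stretch found in the transcript but not in the allele was taken as deleted. Its ends are approximate. In the lines that follow, reference mm10 sequence is in lower case and the bases absent from the targeted allele are in capitals. The stretch lies in exon 1 of Hoxc10 at chr15:102966985-102967411 and in exon 1 of Hoxc11 at chr15:102954672-102954686. It is wholly coding in both genes. Of Hoxc10, whose stretch is the longer, 30 bases of each end are shown.
Hoxc10, first junction: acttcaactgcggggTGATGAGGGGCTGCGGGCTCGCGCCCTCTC
Hoxc10, last junction: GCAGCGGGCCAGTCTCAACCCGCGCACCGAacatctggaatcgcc
Hoxc11: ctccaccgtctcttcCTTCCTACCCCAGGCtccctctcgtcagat
The absent stretch is 427 bases in Hoxc10 and 15 in Hoxc11, or 22.4% and 0.7% of the transcript. If reads covered each transcript evenly, loss of the stretch from both copies would lower the count by 0.37 on the log2 scale in Hoxc10 and by 0.01 in Hoxc11. From 1 copy it would lower Hoxc10 by 0.17. The lengths rest on the printed allele sequences and differ from the deletion sizes listed with them, most of all for Hoxc11, so that the value for Hoxc11 is uncertain. The targeted Hoxc9 allele is not reported here and those of the Hoxa genes were not analysed. The effect of absent bases on the counts of these genes was therefore not tested.

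Counts on genes ranged from 28616877 to 47067903 per library. Levels are in CPM, which relates the count of a gene to the size of its library, adjusted by TMM factors. The kidney identity of the libraries was checked with marker genes. The summed level of 12 cap mesenchyme markers, among them Six2 and Gdnf, was 497 to 670 CPM in Wt, 489 to 931 in AkCh, 468 to 583 in AhCk and 205 to 404 in AkCk. Summed over 14 renal stroma markers, the level was 5330 to 5580 CPM in Wt, 5610 to 7620 in AkCh, 6430 to 8680 in AhCk and 12700 to 15200 in AkCk. Markers of other organs were low but not absent. Of 6 adrenal cortex markers, Cyp11b1 and Cyp21a1 stayed under 1 CPM in every library, and the sum of the 6 was 36.4 to 46.0 CPM in Wt and 24.7 to 36.2 in AkCk, of which Akr1b7 made up 36.8 ± 4.25 and 23.9 ± 3.21 (SD, n = 3). Of 7 gonad markers, 5 stayed under 1 CPM everywhere (Amh, Insl3, Cyp17a1, Dazl and Foxl2), and the sum of the 7 reached at most 2.55 CPM. The sum of 7 liver markers was 4.64 to 8.69 CPM in Wt, 7.52 to 52.5 in AkCh, 9.29 to 42.3 in AhCk and 12.4 to 32.5 in AkCk. AkCh replicate 20 stood apart. It had the fewest counts (28616877), the highest cap mesenchyme sum (931 CPM) and the lowest sum of 9 proximal tubule markers (490 CPM, against 1180 to 3230 in Wt), as well as the highest liver sum (52.5 CPM). Values of AkCh are therefore given with and without it or by library. Xist exceeded 100 counts in 0 of 3 Wt, 2 of 3 AkCh, 1 of 3 AhCk and 2 of 3 AkCk libraries, so the groups were unequal in sex. In whole kidneys, fewer cells of a type and less RNA per cell cannot be told apart.

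All 9 paralogs were transcribed in every library, whichever genes were mutated. The lowest count of any of them was 35, for Hoxc11 in AkCk replicate 27. Per length of exon, Hoxa10 was the highest in wild type kidneys, at 46.9 ± 6.36 CPM per kb (SD, n = 3), followed by Hoxd9 (38.2 ± 4.01), Hoxd11 (33.1 ± 3.70), Hoxc10 (30.7 ± 4.37), Hoxd10 (27.8 ± 3.00) and Hoxa11 (22.8 ± 3.40). Neighbours among these 6 genes overlapped in range over the 3 libraries, but each library gave the same order of the 6. Below them came Hoxa9 at 7.76 ± 0.370 CPM per kb, Hoxc9 at 5.43 ± 0.990 and Hoxc11 at 0.823 ± 0.0727, each apart from its neighbours without overlap. The wild type kidney thus had all 3 HoxD paralogs and both Hox10 paralogs of the other clusters among the higher genes, and Hoxc11, the paralog of Hoxa11 and Hoxd11, at the bottom.

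The order shifted in the mutants. Hoxd9 was the highest per kb in AkCh (43.7 ± 14.6), AhCk (40.4 ± 3.49) and AkCk (40.9 ± 3.47), and in AkCk each Hoxd9 value lay above each Hoxa10 value (33.5 ± 1.85). Hoxd9 overlapped Hoxa10 in AkCh and Hoxd11 in AhCk. Without AkCh replicate 20, Hoxd9 was at 35.3 CPM per kb and Hoxa10 at 33.5 in AkCh (n = 2), and Hoxc10 went from 36.3 to 22.8. Hoxc10 was the fourth in Wt and the sixth in AkCk, at 17.9 ± 2.39 CPM per kb, where it overlapped Hoxa11 (18.7 ± 3.85). The length used for Hoxc10 includes the stretch absent from its targeted allele, and its place in the mutants without that stretch was not tested. Hoxa9, Hoxc9 and Hoxc11 remained the lowest in all 4 groups. The lengths used are exons of transcripts paired with a RefSeq mRNA. With the exons of every GENCODE transcript, an alternative added after the values had been seen, Hoxd11 moved from the third to the sixth place in Wt, at 8.73 CPM per kb, and Hoxa9, at 4.49, fell below Hoxc9.

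**Figure D1:**
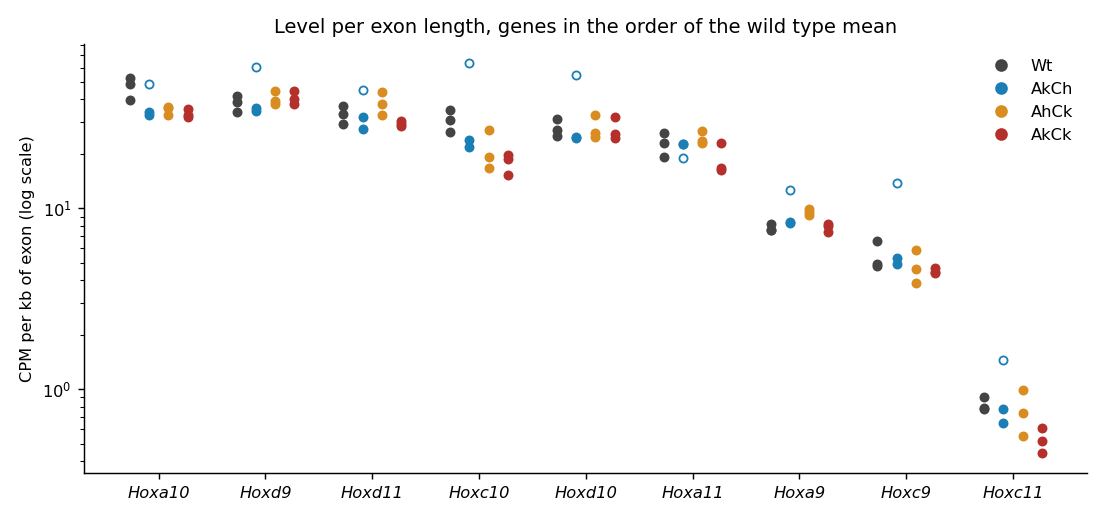
Level of each paralog in CPM per kb of exon (log scale) in the 12 libraries, 1 point per library, coloured by group, with AkCh replicate 20 as an open circle. Hoxa9, Hoxc9 and Hoxc11 are the lowest genes in every group, with Hoxc11 at 0.823 CPM per kb in Wt on average.

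AkCk kidneys, labelled double homozygous but with at least 1 intact copy of Hoxa11 by the study's description, were compared with wild type to ask what became of the transcripts of the mutated genes and of their intact HoxD paralogs. Both mutated Hox10 genes fell, Hoxc10 to 58.4% and Hoxa10 to 71.4% of the wild type mean. Neither Hox9 nor Hox11 genes of the mutated clusters passed the test, and none of the 3 HoxD genes did. Of the 9 paralogs, 2 were lower and 0 higher at an adjusted p of 0.05, where 7.40% of the 15839 genes tested were lower and 6.31% higher (edgeR quasi-likelihood test, Benjamini-Hochberg over all genes).

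Hoxc10, known for its part in lumbar motor neuron identity, had 50.2, 58.8 and 66.9 CPM in Wt replicates 30, 37 and 55, and 37.8, 29.1 and 35.8 CPM in AkCk replicates 24, 27 and 29. Every AkCk library lay below every Wt library. The log2 fold change was -0.78 (SE 0.14, 95% interval -1.09 to -0.47, adjusted p = 0.0127 by edgeR). Loss of the absent stretch from both copies would give -0.37 if reads covered the transcript evenly, and its part in the fall was not tested. The interval was wider where the spread was estimated over more groups, -1.56 to 0.01 with all 12 libraries, AkCh replicate 20 among them. With Xist as a covariate as well, the log2 fold change was -0.41 (95% interval -1.09 to 0.27). Without Wt replicate 37 the log2 fold change was -0.77 and the adjusted p was 0.0583.

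Hoxa10, required for uterine identity in the female reproductive tract, had 125, 152 and 165 CPM in Wt and 100, 104 and 112 CPM in AkCk. Again the groups did not overlap. The log2 fold change was -0.49 (SE 0.11, 95% interval -0.74 to -0.24, adjusted p = 0.0270 by edgeR). Leaving out Wt replicate 37, Wt replicate 55, AkCk replicate 24 or AkCk replicate 27 ended this call, with adjusted p-values of 0.108, 0.0904, 0.0942 and 0.0736 and log2 fold changes of -0.46, -0.40, -0.45 and -0.48. Both calls were also lost where the spread was estimated over more groups, with log2 fold changes still at -0.49 and -0.78. Those fits take in AkCh replicate 20, which was 1.46-fold above the mean of the other AkCh libraries in Hoxa10 and 2.78-fold in Hoxc10. Its part in the loss of the calls was not tested. With all 12 libraries the adjusted p by edgeR was 0.0790 for Hoxa10 and 0.226 for Hoxc10. With the 9 libraries of 1 run it was 0.145 and 0.292. The fit with all 12 libraries and Xist as a covariate also changed the model. It gave log2 fold changes of -0.36 and -0.41, with adjusted p-values of 0.193 and 0.497. The part of sex in these falls was not tested beyond this fit. AkCh replicate 20, which takes part in it, had 0.0386 CPM of Xist, against 190 and 253 in AkCh replicates 31 and 33. Within AkCh, sex and this library therefore cannot be told apart.

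The other HoxC paralogs did not pass the test in AkCk. Hoxc9, which sets thoracic motor neuron identity, had 11.4, 11.7 and 15.6 CPM in Wt and 11.1, 10.5 and 10.4 CPM in AkCk, a log2 fold change of -0.27 (95% interval -0.61 to 0.06). With all 12 libraries and Xist as a covariate the direction turned, to 0.05 (95% interval -0.67 to 0.76). The rarest paralog, Hoxc11, had 1.56, 1.59 and 1.83 CPM in Wt, from 59 to 74 counts, and 1.04, 0.892 and 1.24 CPM in AkCk, from 35 to 45 counts. Its log2 fold change was -0.65 (95% interval -1.20 to -0.11), with an unadjusted p of 0.0250 and an adjusted p of 0.103 by edgeR. With Hoxa10 and Hoxc10, these made 4 of 9 paralogs whose AkCk libraries all lay below all Wt libraries, against 20.8% of genes tested.

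Hoxa9, a regulator of blood progenitors as well as of the body axis, had 24.3, 24.3 and 26.4 CPM in Wt and 26.5, 25.9 and 24 CPM in AkCk. The groups overlapped, and the log2 fold change was 0.02 (95% interval -0.18 to 0.22). Hoxa11, which patterns the forearm together with Hoxd11, had 44.2, 52.7 and 59.7 CPM in Wt and 37.1, 38.2 and 52.9 CPM in AkCk. AkCk replicate 29 lay within the Wt range, and the log2 fold change was -0.29 (95% interval -0.67 to 0.09).

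The HoxD paralogs, which these embryos had not lost, were not called higher or lower. Hoxd9 had 72.4, 82.8 and 89.3 CPM in Wt and 80.8, 95.4 and 86.0 in AkCk (log2 fold change 0.10, 95% interval -0.13 to 0.33). Hoxd10, which acts with Hoxc10 in the lumbar spinal cord, had 45.6, 49.4 and 56.3 CPM in Wt and 44.8, 58.0 and 46.5 in AkCk (log2 fold change -0.02, 95% interval -0.31 to 0.27). Hoxd11 had 32.5, 37.1 and 40.7 CPM in Wt and 32.6, 33.9 and 31.6 in AkCk (log2 fold change -0.17, 95% interval -0.40 to 0.06). The upper ends of these intervals, from the fit to 6 libraries, reach 0.33 on the log2 scale. With all 12 libraries they reach 0.59, and with all 12 and Xist as a covariate 0.83, both for Hoxd10. Summed over the cluster, the HoxD paralogs came to 169 ± 18 CPM (SD, n = 3) in Wt and 170 ± 15.4 in AkCk, the HoxA paralogs to 225 ± 28.6 and 173 ± 13.2, and the HoxC paralogs to 73.2 ± 10.6 and 45.9 ± 4.86. For the HoxA and HoxC sums the libraries did not overlap, and an exact permutation test (two-sided) gave p = 0.1, the smallest that 3 libraries against 3 allow. The HoxD sums gave p = 0.9 by the same exact test.

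The kidneys of this comparison also differed in cell type markers. Of 12 cap mesenchyme markers, 7 were lower and 0 higher in AkCk than in Wt, and of 8 ureteric bud tip markers 7 were lower and 0 higher, with a summed level of 229 to 345 CPM against 448 to 467. Of 14 renal stroma markers, 9 were higher and 0 lower. The median log2 fold changes were -1.03, -0.89 and 0.73, beside a median of -0.01 over all genes tested. No marker of these 3 lists stayed under 1 CPM in every library. Of 7 liver markers 3 were higher, among them Alb, the main plasma protein of the liver, at 9.2 ± 6.47 CPM in AkCk and 0.874 ± 0.209 in Wt. Myh3, 1 of 7 skeletal muscle markers, was higher at 2.12 ± 1.17 against 0.395 ± 0.129 CPM, and Sox10, 1 of 6 markers of nerve, at 1.25 ± 0.51 against 0.396 ± 0.0259 CPM. Of 8 markers of ureter and urothelium 2 were higher, and 1 of 7 collecting duct markers and 1 of 6 adrenal cortex markers (Akr1b7) were lower, while 0 of 9 proximal tubule and 0 of 7 gonad markers were called. Only 2 of the 7 gonad, 3 of the 6 adrenal cortex and 4 of the 6 nerve markers passed the count filter and were tested. The part of these shifts in the falls of Hoxa10 and Hoxc10 was not tested.

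**Figure D2:**
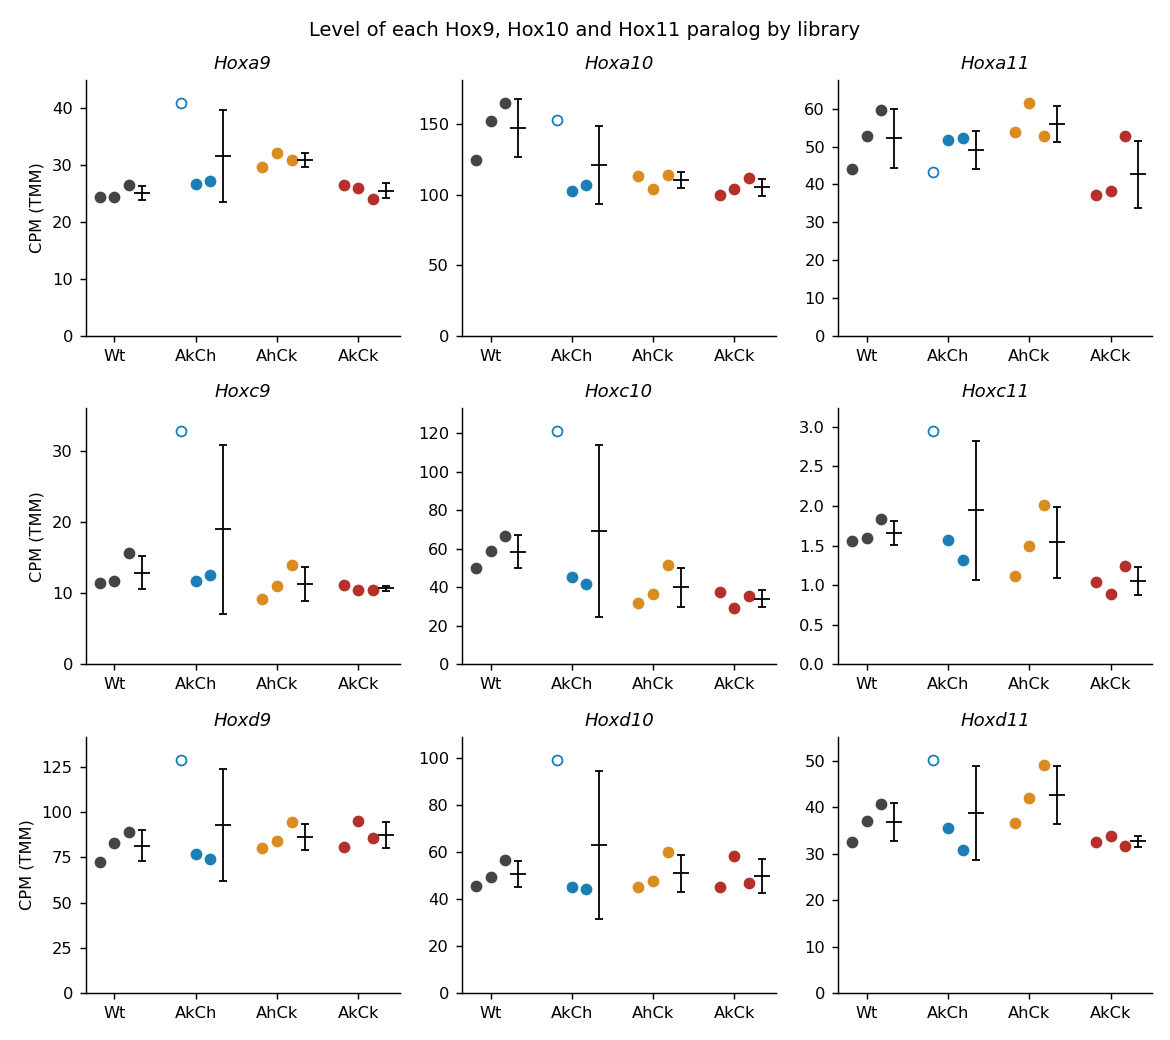
CPM of each paralog in every library, with points for libraries and the mean ± SD beside each group (n = 3), and AkCh replicate 20 as an open circle. Hoxa10 and Hoxc10 are lower in each AkCk library than in each Wt library, and AkCh replicate 20 is the highest of the 12 libraries for 7 of the 9 genes.

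AkCh kidneys, with both copies of the Hoxa genes and 1 copy of the Hoxc genes mutated, were compared with wild type to ask how the paralogs are transcribed with 1 intact HoxC copy left. No paralog passed the test against wild type, and neither did any other gene (0.0% of 15789 genes tested by edgeR). At an unadjusted p of 0.05 edgeR gave 360 genes (2.28%), none of them a paralog, while DESeq2 called 22 genes and limma 0, again with no paralog. Most of the spread in AkCh came from replicate 20. In it Hoxc10 reached 121 CPM, against 45.3 in replicate 31 and 41.6 in replicate 33. Hoxc9 was at 32.7, 11.7 and 12.6 CPM in replicates 20, 31 and 33, and Hoxd10 at 99.0, 45 and 44.2. Hoxd9 was at 129, 76.7 and 74.0 CPM, Hoxd11 at 50.2, 35.5 and 30.7, and Hoxc11 at 2.94, 1.57 and 1.32. Relative to the mean of the other two libraries, replicate 20 was 2.78-fold higher in Hoxc10, 2.69-fold in Hoxc9 and 2.22-fold in Hoxd10. Hoxa11, alone among the paralogs, was lower in replicate 20 (43.2 CPM) than in replicates 31 and 33 (51.8 and 52.2). Replicate 20 also had 164 CPM of Six2, a nephron progenitor gene, against 76.7 and 69.7, and the part of its marker levels in these values was not tested.

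Hoxa10, mutated in both copies, had 153, 103 and 107 CPM in AkCh replicates 20, 31 and 33, beside the 125 to 165 CPM of Wt. The log2 fold change was -0.28 (95% interval -0.74 to 0.18) with all 3 libraries and -0.49 (95% interval -0.77 to -0.21) without replicate 20. The adjusted p was 1.00 and 0.431 by edgeR, so neither was called. For Hoxc10, mutated in 1 copy, the log2 fold change was 0.24 (95% interval -0.79 to 1.27) with replicate 20 and -0.44 (95% interval -0.74 to -0.13, adjusted p = 0.431 by edgeR) without it. Hoxa9 had 40.8, 26.7 and 27.1 CPM, each above the 26.4 CPM of the highest Wt library, though by little in replicates 31 and 33. This made it the 1 paralog of 9 whose groups did not overlap, against 8.35% of genes tested, with a log2 fold change of 0.33 (95% interval -0.12 to 0.79), or 0.10 (95% interval -0.10 to 0.29) without replicate 20. Without replicate 20 the log2 fold changes of Hoxc9, Hoxc11, Hoxd9, Hoxd10 and Hoxd11 turned from 0.56, 0.21, 0.20, 0.32 and 0.08 to -0.09, -0.21, -0.12, -0.18 and -0.15. Their direction in AkCh thus rested on 1 library.

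In AhCk kidneys, with 1 copy of the Hoxa genes and both copies of the Hoxc genes mutated, no paralog passed the test against wild type, where 2.36% of 15902 genes did. The lowest adjusted p-values belonged to Hoxa9 and Hoxa10, neighbours on the HoxA cluster that differed in opposite directions. Hoxa9 had 29.6, 32.0 and 30.9 CPM in the libraries AhCk_38, AhCk_110 and AhCk_115, above the 24.3 to 26.4 CPM of Wt in every library. Its log2 fold change was 0.31 (95% interval 0.13 to 0.49, adjusted p = 0.0847 by edgeR). Hoxa10 had 113, 104 and 114 CPM, below the 125 to 165 CPM of Wt in every library, a log2 fold change of -0.41 (95% interval -0.66 to -0.16, adjusted p = 0.0957 by edgeR). These were the 2 paralogs whose groups did not overlap, against 26.7% of genes tested. DESeq2 called both, with adjusted p-values of 0.0244 and 0.0157, among 1318 of the 15902 genes. Without Wt replicate 30, edgeR called Hoxa10 (adjusted p = 0.0312, log2 fold change -0.52).

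Hoxc10 in AhCk had 32.1, 36.6 and 51.6 CPM, and AhCk_115 lay within the Wt range of 50.2 to 66.9. The log2 fold change was -0.54 (95% interval -0.97 to -0.10, adjusted p = 0.164 by edgeR). Hoxc9 (9.16, 11.0 and 13.9 CPM) and Hoxc11 (1.12, 1.49 and 2.01 CPM) overlapped Wt, with log2 fold changes of -0.17 (95% interval -0.61 to 0.27) and -0.09 (95% interval -0.69 to 0.51). For Hoxa11, Hoxd9, Hoxd10 and Hoxd11 the log2 fold changes were 0.11, 0.09, 0.02 and 0.22, each with an interval that held 0. Renal stroma markers were higher in 4 of 14 and lower in 0 of 14 in this comparison, ureteric bud tip markers were lower in 1 of 8, and cap mesenchyme markers were called in 0 of 12.

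**Figure D3:**
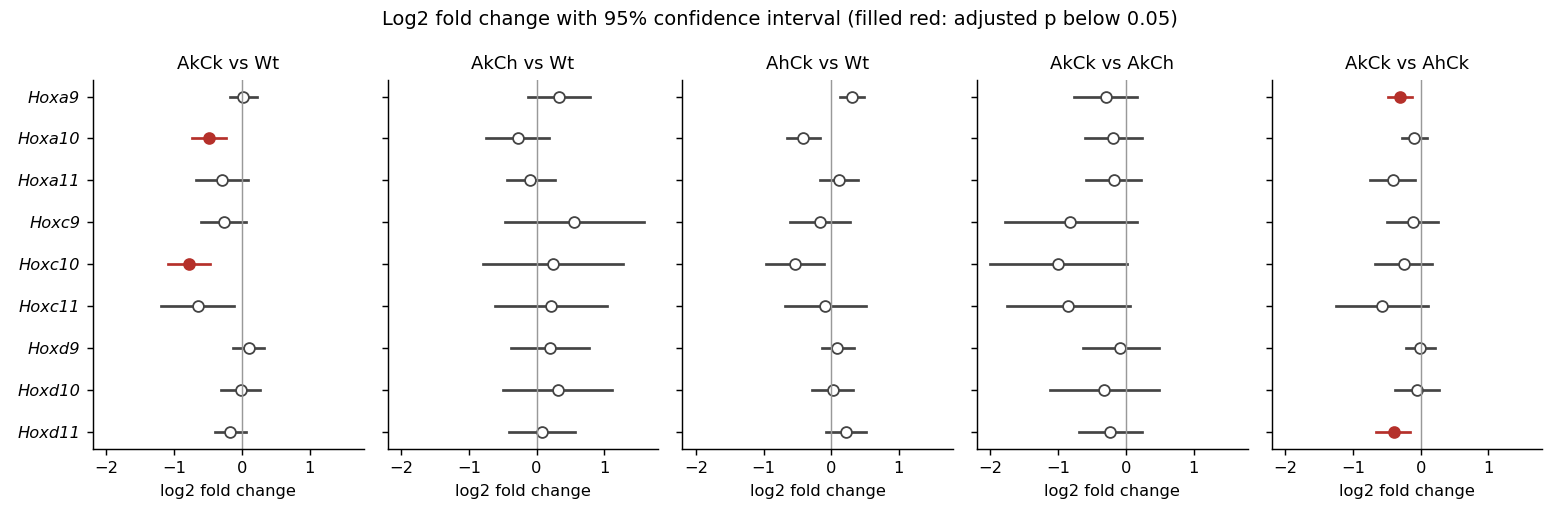
Log2 fold change of each paralog (point) with its 95% confidence interval (line) in the 5 comparisons by edgeR, with filled red points for an adjusted p below 0.05. In AkCk against Wt, Hoxa10 (-0.49) and Hoxc10 (-0.78) passed, and in AkCk against AhCk, Hoxa9 (-0.30) and Hoxd11 (-0.40).

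AkCk was set against each of the other mutants to ask how the same transcripts differ with fewer intact HoxC or HoxA copies. Against AkCh, which differs by 1 intact HoxC copy and, by the description in the study, by Hoxa11, no paralog and no gene at all was called (0.0% of 15764 genes by edgeR). There were 1787 genes (11.3%) at an unadjusted p of 0.05, none of them a paralog, and DESeq2 called 554 genes and limma 2, with no paralog in either. The 3 HoxC paralogs had the lowest log2 fold changes, -1.0 for Hoxc10 (95% interval -2.01 to 0.01), -0.85 for Hoxc11 (-1.76 to 0.06) and -0.82 for Hoxc9 (-1.79 to 0.16). All AkCk libraries lay below all AkCh libraries in these 3 genes and in Hoxa9, 4 of 9 paralogs against 13.1% of genes tested that were lower without overlap. Without AkCh replicate 20 the 3 values were -0.32 (95% interval -0.62 to -0.02, unadjusted p = 0.0378 by edgeR), -0.43 (-1.12 to 0.27) and -0.17 (-0.44 to 0.11), with adjusted p-values of 0.187, 0.420 and 0.423. The differences in HoxC transcripts between these groups were thus much smaller without that 1 library. Hoxd9 turned from -0.08 to 0.24 without it (95% interval 0.02 to 0.45, unadjusted p = 0.0353, adjusted p = 0.181 by edgeR). Hoxd10 turned from -0.32 to 0.18 (95% interval -0.11 to 0.47).

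Against AhCk, which keeps an intact copy of Hoxa9 and Hoxa10 where AkCk keeps none, Hoxa9 and Hoxd11 were lower in AkCk, 2 of 9 paralogs where 11.4% of 15889 genes tested were lower and 7.63% higher. Hoxa9 was at 29.6 to 32.0 CPM in AhCk and 24 to 26.5 in AkCk, a log2 fold change of -0.30 (SE 0.08, adjusted p = 0.0365 by edgeR). Hoxd11 was at 36.6, 42.0 and 49.1 CPM in AhCk and 31.6 to 33.9 in AkCk, a log2 fold change of -0.40 (SE 0.11, adjusted p = 0.0418 by edgeR). In both genes, and in no other paralog, all AkCk libraries lay below all AhCk libraries, as did 20.4% of genes tested. Each call was lost when any library other than AhCk_38 was left out, with adjusted p-values up to 0.173 for Hoxa9 and 0.143 for Hoxd11, and Hoxd11 then lay between -0.43 and -0.27. Both calls were also lost with all 12 libraries (adjusted p = 0.265 for Hoxa9 and 0.192 for Hoxd11 by edgeR), with all 12 and Xist as a covariate (0.251 and 0.195) and with limma (0.0504 and 0.0603). Hoxa11 had a log2 fold change of -0.41 (95% interval -0.75 to -0.08) and an adjusted p of 0.0836 by edgeR. Without AkCk replicate 29, which had the highest Hoxa11 level of its group, the log2 fold change was -0.60 and Hoxa11 was called (adjusted p = 0.0164 by edgeR). By the study's description both groups kept at least 1 intact copy of Hoxa11, so a loss of copies of this gene cannot be read into the comparison. In the same comparison 7 of 14 renal stroma markers were higher, and 5 of 8 ureteric bud tip and 3 of 12 cap mesenchyme markers were lower. The part of these shifts in the values of Hoxa9 and Hoxd11 was not tested, and run and genotype cannot be told apart.

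Ratios between genes within a library do not depend on how libraries are scaled to each other. They were therefore used to ask whether the Hox10 genes fell with their neighbours on the cluster or apart from them. These ratios were added after the values had been seen. Counts of Hoxa10 relative to Hoxa9 were 5.15, 6.25 and 6.23 in Wt. They were 3.75, 3.87 and 3.95 in AkCh replicates 20, 31 and 33, 3.80, 3.23 and 3.69 in AhCk, and 3.78, 4.01 and 4.66 in AkCk. Every mutant library lay below every wild type library, AkCh replicate 20 included, and the 3 groups were compared with the same Wt libraries. The difference of the mean log2 ratio was -0.60 in AkCh, -0.71 in AhCk and -0.50 in AkCk. AhCk carries 1 mutated copy of Hoxa9 and Hoxa10, while AkCh and AkCk carry both, and the difference between the mutant groups was not tested.

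Counts of Hoxc10 relative to Hoxc9 were 4.42, 5.02 and 4.29 in Wt, 3.69, 3.88 and 3.29 in AkCh, 3.50, 3.33 and 3.71 in AhCk, and 3.42, 2.76 and 3.44 in AkCk. Here too the mutant libraries lay below the wild type libraries, with differences of -0.34, -0.38 and -0.52 in mean log2 ratio. The part of the bases absent from the targeted alleles in these differences was not tested. Hoxd10 relative to Hoxd9, neither of them mutated, was 0.596 to 0.631 in Wt, 0.587 to 0.765 in AkCh, 0.560 to 0.632 in AhCk and 0.541 to 0.609 in AkCk, and all 3 mutant groups overlapped Wt. Differences in mean log2 ratio were 0.06, -0.08 and -0.13.

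Relative to the Hox11 genes the picture was less even. Hoxa10 to Hoxa11 was 2.84, 2.89 and 2.76 in Wt and lower in all AhCk libraries (2.09, 1.69 and 2.16) and AkCk libraries (2.70, 2.71 and 2.11), while AkCh replicate 20, at 3.55, lay above Wt and replicates 31 and 33 at 2.00 and 2.05. Hoxc10 to Hoxc11 was 32.1 to 36.9 in Wt and lower without overlap only in AhCk (24.5 to 28.8), with counts of Hoxc11 under 100 in every library. The difference of the mean log2 ratio was -0.42 in AhCk and -0.11 in AkCk, where loss of the absent stretches from both copies would give -0.36 with even coverage. Hoxd10 to Hoxd11 was likewise 1.33 to 1.40 in Wt and 1.13 to 1.23 in AhCk, and overlapped Wt in AkCh and AkCk. Where the groups did not overlap in one of these 6 ratios, the exact permutation test gave p = 0.1 (two-sided), the smallest it allows, and for single genes the share without overlap was 38.1% in AkCk, 8.35% in AkCh and 26.7% in AhCk.

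**Figure D4:**
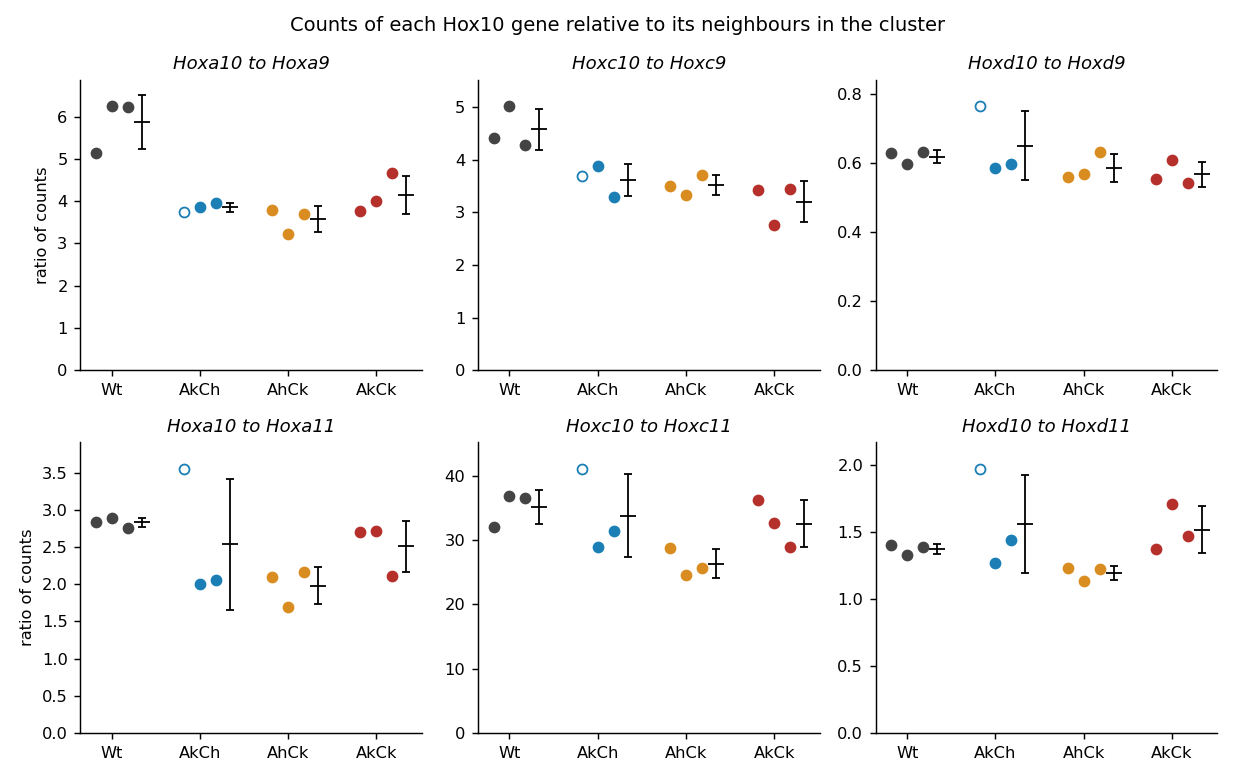
Ratio of the counts of each Hox10 gene to the Hox9 gene (upper row) and the Hox11 gene (lower row) of its cluster, 1 point per library with the mean ± SD (n = 3) and AkCh replicate 20 as an open circle. Hoxa10 to Hoxa9 and Hoxc10 to Hoxc9 are lower in all mutant libraries than in Wt, where they average 5.88 and 4.58, and Hoxd10 to Hoxd9 overlaps between the groups.

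The counts of a paralog group were divided among its 3 clusters. Such shares of counts also depend on exon length and on bases absent from a targeted allele, and are not shares of molecules. Of all Hox10 counts in Wt, 57.4% ± 0.893 (SD, n = 3) came from Hoxa10, 22.8% ± 0.353 from Hoxc10 and 19.7% ± 0.817 from Hoxd10. Per kb of exon, the 3 shares were 44.5%, 29.1% and 26.4%. The Hoxd10 share of counts was 24.2% ± 2.00 in AkCh (26.5%, 23.2% and 22.9% in replicates 20, 31 and 33), 25.2% ± 1.41 in AhCk and 26.3% ± 3.58 in AkCk. It was 19.0% to 20.6% over the Wt libraries and 22.9% to 30.4% over the mutant libraries. In each of the 3 groups it lay above Wt without overlap (exact permutation test, two-sided, p = 0.1). Because the CPM of Hoxd10 was 50.4 ± 5.46 in Wt and 49.8 ± 7.22 in AkCk, the larger share in AkCk went with less Hoxa10 and Hoxc10. The Hoxc10 share in AkCk was 18.1% ± 2.73, at 15.2% to 20.7% against 22.6% to 23.2% in Wt. For scale, taking the absent Hoxc10 stretch out of the Wt counts gives Wt shares of 18.7% ± 0.305 for Hoxc10 and 20.8% ± 0.861 for Hoxd10 with both copies changed, and of 20.8% ± 0.33 and 20.2% ± 0.839 with 1 copy changed, as in AkCh. These values assume even coverage, which was not measured, and were added after the data had been seen. The part of the stretch in the shares was not tested. The Hoxa10 share was 50% ± 7.78 in AkCh (41.1%, 53.4% and 55.5% in replicates 20, 31 and 33), below the 56.7% to 58.4% of Wt without overlap (exact permutation test, two-sided, p = 0.1). In AhCk (55% ± 4.39) and AkCk (55.6% ± 1.73) it overlapped Wt.

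**Figure D5:**
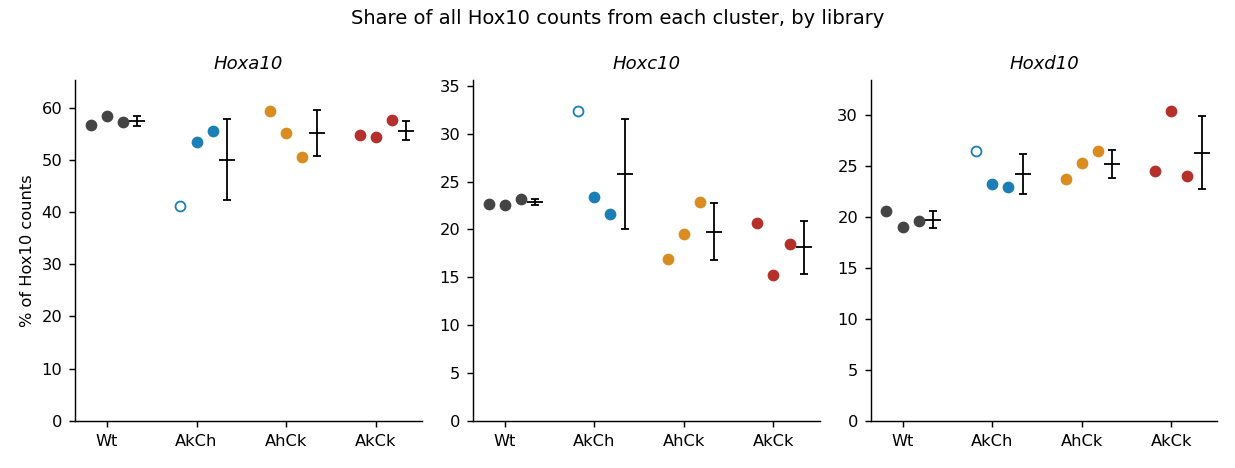
Share in percent of all Hox10 counts of a library that came from Hoxa10, Hoxc10 and Hoxd10, 1 point per library with the mean ± SD (n = 3) and AkCh replicate 20 as an open circle. The Hoxd10 share is 19.0% to 20.6% in Wt and at least 22.9% in every mutant library.

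Among Hox9 counts, Hoxd9 made up 68.2% ± 1.37 in Wt, Hoxa9 21.0% ± 1.31 and Hoxc9 10.7% ± 1.03. In AkCk the Hoxc9 share was 8.66% ± 0.668, below Wt in all 3 libraries, and the Hoxd9 share of 70.7% ± 2.17 overlapped Wt. In AkCh the Hoxd9 share was 65.2% ± 1.46 (63.8%, 66.7% and 65.1% in replicates 20, 31 and 33), with all 3 libraries below the Wt range of 67.0% to 69.7% (exact permutation test, two-sided, p = 0.1). Of Hox11 counts in Wt, 57.5% ± 0.966 were on Hoxa11, 40.6% ± 0.857 on Hoxd11 and 1.84% ± 0.137 on Hoxc11. In AkCk, where Hoxa11 was intact in at least 1 copy by the study's description, these shares were 55.5% ± 5.36, 43.1% ± 5.42 and 1.38% ± 0.139. Which of Hoxa11 and Hoxd11 was the larger turned with the exon length. Per kb of the exons paired with a RefSeq mRNA, Hoxa11 made up 40.1% and Hoxd11 58.4% in Wt, and 38.2% and 60.7% in AkCk. Per kb of the exons of every GENCODE transcript, Hoxa11 made up 70.4% and Hoxd11 27% in Wt, and 68.9% and 29.2% in AkCk. By each of these measures Hoxc11 was the smallest.

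The paralogs did not vary as 1 block across the 12 libraries. Pearson's r of log2(CPM + 0.5), given as a description over libraries that share groups and runs, was 0.96 for Hoxd9 with Hoxd10 and 0.88 without AkCh replicate 20. It was 0.75 for Hoxd10 with Hoxd11 (0.64 without replicate 20), 0.92 for Hoxc9 with Hoxc10 (0.81) and 0.93 for Hoxc10 with Hoxc11 (0.85). Across clusters it was 0.9 for Hoxc9 with Hoxd10 (0.52). On the HoxA cluster it was 0.17 for Hoxa9 with Hoxa10 (-0.34) and 0.21 for Hoxa10 with Hoxa11 (0.39). Hoxa10 varied more with Hoxc10 (0.80 with and without replicate 20) than with its own neighbours.

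Outside the clusters, the genes with the pattern most like Hoxc10 over the 12 libraries were Ik (r = 0.985), Ptpn12 (0.984) and Sf3a3 (0.979), which stayed at 0.963 or above without AkCh replicate 20. For Hoxd11 they were Mepce (0.979), Rrbp1 (0.965) and Vps37d (0.956), and for Hoxc11 Tcf4 (0.974), Htatsf1 (0.968) and Armcx1 (0.967). For Hoxa10 they were Ocm (0.960), Rapgef4 (0.953) and Gimap6 (0.929), and for Hoxa11 Ubash3b (0.922), Nup62-il4i1 (0.897) and Igdcc3 (0.896). The closest genes to Hoxa9 (Cd1d2, Hspa8 and Msl1, 0.948 to 0.960), Hoxc9 (Ndufaf2, 0610009E02Rik and Ccdc58, 0.972 to 0.976), Hoxd9 (Tmem81, Mfap2 and Chst2, 0.957 to 0.973) and Hoxd10 (2210016L21Rik, Fgf9 and C1qtnf4, 0.966 to 0.983) had r of 0.850 to 0.925 once AkCh replicate 20 was left out.

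Of the 30 other Hox genes on the HoxA to HoxD clusters, 24 were tested in AkCk against Wt, and 4 were lower and 2 higher, beside 7.40% and 6.31% of all genes tested. Hoxd4 and Hoxd3, neighbours on the HoxD cluster, had log2 fold changes of -1.86 and -1.67 (adjusted p = 0.00288 and 0.00176 by edgeR), Hoxb3 of -1.0 and Hoxa3 of -0.56, while Hoxc8, the neighbour of Hoxc9, was at 0.73 and Hoxc5 at 0.77. Hoxb3, Hoxd3 and Hoxd4 passed with any 1 of the 6 libraries left out, Hoxa3 and Hoxc8 in 2 of these 6 fits and Hoxc5 in 0, with adjusted p-values up to 0.105, 0.103 and 0.137 by edgeR. Against AhCk, 9 of the 24 were lower and 0 higher, beside 11.4% and 7.63% of all genes tested. The 9 were Hoxa3, Hoxa5, Hoxa6, Hoxb3, Hoxb4, Hoxb5, Hoxb8, Hoxd3 and Hoxd4, with log2 fold changes from -0.43 to -2.06. Of these, Hoxa3, Hoxb3, Hoxd3 and Hoxd4 passed in all 6 fits that left out a library, and the other genes in 1 or 2 of them. In AhCk against Wt, Hoxc5 was higher (0.95, adjusted p = 0.0376 by edgeR, passing in 1 of 6 fits with a library left out), and its exons overlap those of Hoxc10. The antisense RNA Hotair, transcribed between Hoxc11 and Hoxc12, had 0.322 ± 0.0495 CPM in Wt and 0.0445 ± 0.0416 in AkCk (adjusted p = 0.0361 by edgeR). Its counts were 14, 14 and 11 in Wt and 0, 2 and 3 in AkCk, and it passed in 1 of 6 fits with a library left out. It was 1 of 4 noncoding genes of the clusters that could be tested in that comparison.

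Of 20 Hox cofactors and partners in kidney development, 3 were lower and 0 higher in AkCk than in Wt, beside 7.40% and 6.31% of all genes tested. Of the 3, Gdnf and Sall1 are also among the cap mesenchyme markers counted above. DESeq2 called 7 of the 20 in this comparison, beside 3380 of the 15839 genes tested. By edgeR 9 of the 20 had an unadjusted p below 0.05, beside 32.4% of all genes tested. The list had a median log2 fold change of -0.23 beside -0.01 over all genes tested. Gdnf, the ligand that draws out the ureteric bud, had 34.9 ± 5.0 CPM (SD, n = 3) in Wt and 10.6 ± 4.26 in AkCk (log2 fold change -1.73, SE 0.28, adjusted p = 0.0100 by edgeR). Sall1, needed for ureteric bud invasion, fell by 0.68 on the log2 scale, and Lhx1, which acts in the early nephron, by 0.55. Gdnf passed with any 1 library left out, Sall1 in 3 of 6 such fits and Lhx1 in 2, with adjusted p-values up to 0.123 and 0.117 by edgeR. Against AhCk, Pax2 was lower as well, at 81.7 ± 23.8 CPM in AkCk and 155 ± 17.5 in AhCk (log2 fold change -0.95, adjusted p = 0.0185 by edgeR), and passed in 3 of 6 such fits. The Pbx, Meis and Pknox genes, whose proteins bind DNA together with Hox proteins, were called by edgeR in neither comparison, while DESeq2 called Meis2 and Pknox2 in AkCk against Wt. In edgeR 0 of the 20 passed in AkCh or AhCk against Wt. At an unadjusted p of 0.05 edgeR gave 1 of the 20 in AkCh and 3 in AhCk, beside 2.28% and 21.1% of all genes tested. DESeq2 called 0 of the 20 in either, and 22 and 1318 genes in all. In AkCk against AkCh edgeR called 0 of the 20 and gave 6 at an unadjusted p of 0.05, beside 11.3% of all genes tested. DESeq2 called 2 of the 20 there, and 554 genes in all. In AkCk against AhCk edgeR and DESeq2 each called 4 of the 20, beside 3027 and 3958 of the 15889 genes tested.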

How the data were processed

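RNA of whole E18.5 mouse kidneys was sequenced by the authors (Illumina TruSeq, paired end, 75 bases), aligned to mm10 and analyzed in Strand NGS, with removal of reads aligning to more than 1 position. The values deposited by the authors are expected counts per gene, which carry fractions and were rounded here, and normalized values on the log2 scale. The aligner settings and the use of strand are not given in the sources used here.

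Counts were tested with edgeR 4.0.16 (R 4.3.3), using TMM factors, filterByExpr defaults (minimum count 10, minimum total count 15), the quasi-likelihood test on the 6 libraries compared and Benjamini-Hochberg adjustment over all genes tested, with a threshold of 0.05. The study's pooled read test was not used because it has no term for replicate spread. Intervals are 95% and approximate, because the quasi-likelihood test gives no SE. The SE was taken as the absolute log2 fold change divided by the square root of the F statistic. Intervals used it with the t quantile for the degrees of freedom of the fit. Shares, ratios and sums were compared by exact permutation tests over libraries with scipy 1.17.1. DESeq2 1.42.0 and limma 3.58.1 (on the deposited log2 values) were alternatives, and plots used matplotlib 3.10.9. The script was tested on simulated data with the same spread for all genes and no outlying library. That test does not show how well it performs on data such as these. For symbols listed more than once (92), the entry with the most counts kept the symbol. Depth was 28616877 to 47067903 counts per library. No molecular identifiers were used, so that reads may be copies of 1 molecule. Exon lengths and positions came from GENCODE M21. One targeted allele is not reported here.

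The 9 genes, the marker lists, the other Hox genes and the cofactor list were chosen with earlier results of these data known. The genes named are the 9 paralogs, listed genes called in any comparison, and for each paralog the 3 genes outside the Hox clusters with the highest Pearson correlation of log2(CPM + 0.5) over 12 libraries. The marker genes Six2, Cyp11b1, Cyp21a1, Amh, Insl3, Cyp17a1, Dazl and Foxl2 and the sex marker Xist were named after their values were seen. Of 20 noncoding genes listed for the clusters, 9 were found by symbol.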

Additional observations from a re-analysis of the deposited data

How the results depend on the processing

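No paired analysis was possible because the groups compared share no replicate numbers. The count of called paralogs in AkCk against Wt, 2 in the report, was 0 with all 12 libraries, with all 12 and Xist as a covariate and with the 9 libraries of 1 run, and 0 to 2 when each library was left out in turn. In AkCk against AhCk it was 0 with all 12 libraries, with Xist and with limma, and 0 to 2 with each library left out. In AhCk against Wt it was 2 with DESeq2 and 0 to 1 with a library left out. Genes called in AkCk against Wt numbered 3380 with DESeq2, 1190 with all 12 libraries, 991 with Xist, 690 with the 9 libraries and 535 (without Wt replicate 37) to 3386 (without Wt replicate 30) with a library left out. In AkCh against Wt they numbered 22 with DESeq2, 2 with all 12 libraries and 0 to 8 with a library left out, the 8 without AkCh replicate 20. In AhCk against Wt they numbered 1318 with DESeq2, 149 with all 12, 122 with Xist and 60 to 549 with a library left out. In AkCk against AkCh they numbered 554 with DESeq2, 1 without a low count filter, 540 with all 12, 2 with limma, 646 with Xist, 181 with the 9 libraries and 0 to 687 with a library left out, the 687 without AkCh replicate 20. In AkCk against AhCk they numbered 1944 with all 12 and 888 to 3441 with a library left out. The causes were not tested.

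Some log2 fold changes that passed no test changed sign with another setting on whole groups, Hoxc9 in AkCk against Wt from -0.27 and the others from values nearer 0. In AkCk against Wt, Hoxa9 went to -0.04 with library size only, and with Xist Hoxc9 to 0.05 and Hoxd10 to 0.23. In AkCh against Wt, Hoxd11 went to -0.02 with library size only. In AhCk against Wt, Hoxc9 and Hoxc11 went to 0.05 with Xist. In AkCk against AhCk, Hoxd9 went to 0.01 with RLE factors, DESeq2 or limma, 0.02 with all 12 and 0.07 with Xist, and Hoxd10 to 0.06 with Xist.

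With each library left out in turn, the log2 fold change in AkCk against Wt lay from -0.01 to 0.06 for Hoxa9 and from -0.14 to 0.07 for Hoxd10. In AkCh against Wt it lay from -0.19 to 0.02 for Hoxa11, -0.09 to 0.81 for Hoxc9, -0.44 to 0.50 for Hoxc10, -0.21 to 0.43 for Hoxc11, -0.12 to 0.34 for Hoxd9, -0.18 to 0.51 for Hoxd10 and -0.15 to 0.22 for Hoxd11. In AhCk against Wt it lay from 0.00 to 0.22 for Hoxa11, -0.33 to 0.08 for Hoxc11 and -0.11 to 0.10 for Hoxd10. In AkCk against AkCh it lay from -0.29 to 0.02 for Hoxa10, -0.23 to 0.24 for Hoxd9, -0.53 to 0.18 for Hoxd10 and -0.38 to 0.00 for Hoxd11. In AkCk against AhCk it lay from -0.24 to 0.07 for Hoxc9, -0.07 to 0.08 for Hoxd9 and -0.18 to 0.10 for Hoxd10.

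The level per kb of Hoxa9 and Hoxd11 with the exons of every GENCODE transcript was 4.49 and 8.73 in Wt, 5.65 and 9.21 in AkCh, 5.53 and 10.1 in AhCk and 4.56 and 7.76 in AkCk. All 36 levels moved by less than 1 SD with library size only, and all 27 share differences by less than 1 SD per kb. Hoxc11, with 35 to 97 counts per library, is the paralog that depth limits most.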
